A study of Nothobranchius furzeri with 16 samples.

Results

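The genes smad2, smad3b and smad4 encode the core transducers that carry TGFβ signals from the cell surface to the nucleus, and their balance was followed here fish by fish in adipose tissue. They are 3 of the 18606 fish genes in the table and were chosen by name, as rows ENSNFUG00015023992 (smad2), ENSNFUG00015007897 (smad3b) and ENSNFUG00015017545 (smad4). RNA was sequenced from 16 wild-type males of the turquoise killifish Nothobranchius furzeri (strain GRZ-AD), an annual fish with a short life, with 4 fish in each of 4 groups. Old fasted fish were 18 weeks old and had been without food for 72 h, and old refed fish of that age were fed again for 24 h after the fast. Young fasted and young refed fish were 7 weeks old and were treated in the same way, and the methods of the study give ages of 18 to 20 weeks for old and 6 to 8 weeks for young fish. No group was fed throughout, so the fasted state was set against refeeding and not against regular feeding. Each fish was a separate animal kept alone in its tank, RNA of all fish was extracted together, and the sources used here name no sequencing batches.

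Rows of the table carry identifiers and no symbols. The names of the 3 rows rest on z-scores that the study published for the same young fish, to which each row was the closest of all 18606 rows (largest difference 0.106 for smad2, 0.0590 for smad3b and 0.138 for smad4, against 0.149, 0.108 and 0.185 for the next best row). The z-scores of the old fish were not used for this. None of the identifiers matched the RefSeq table of symbols for assembly NfurGRZ-RIMD1, so no coordinates or sequences are given. That table lists 9 genes with a smad symbol, among them smad3a, a second copy of smad3, and their rows were not analysed here. For killifish embryos the study also names smad4b and more than a single smad4 entry. Other copies of smad4 were not analysed either, so smad4 below means this row and not all copies. The proteins of the SMAD family are alike, and reads shared between smad2, smad3b and their relatives may have been split between rows, which was not tested. For want of symbols, the adipose label was not checked against marker genes, and the ligands, receptors and inhibitors of the pathway were not analysed here.

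In the TGFβ and activin pathway, a ligand brings together a pair of receptor kinases, which phosphorylate the receptor-activated SMADs (R-SMADs), SMAD2 and SMAD3. These then join SMAD4, the partner shared by all R-SMADs, and the complex enters the nucleus and acts on its target genes. In mammals SMAD3 binds DNA directly, while the main form of SMAD2 does not, and TGFβ signaling through SMAD3 is known to restrain the formation of fat cells. Transcript levels do not show how much of any SMAD protein is phosphorylated.

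Values are normalized units made from estimated reads, with medians of 155 to 168 units in the 16 fish and sums over all fish genes of 14.3 to 28.3 M units. Spike-in rows, which are synthetic RNAs added as a standard, took 2.63% to 4.59% of a column total, and the depth behind the values is unknown. Both differed by group. Sums were 24.5 to 28.3 M units in young fasted but 14.3 to 17.0 M units in old refed fish. The 50 most abundant genes took 53.5% to 58.6% of the sum in old fasted and 44.9% to 50.7% in old refed fish. They took 66.6% to 68.6% in young fasted and 57.7% to 67.2% in young refed fish. This sum is the divisor of the log2 CPM scale used below. The spike-in share was 3.62% to 4.59% in young fasted against 2.63% to 2.90% in young refed fish, and 3.84% to 4.50% in old fasted against 3.13% to 3.70% in old refed fish. The level of a gene therefore depends on how each fish was scaled. A ratio of 2 genes in the same fish does not depend on that factor, and the results below turn on ratios. Values of different genes are not per length as far as stated, so a ratio of 1 does not mark equal numbers of transcripts, but a shift of a ratio between groups is free of gene length.

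On the deposited scale, fasted adipose tissue had higher values of all 3 genes than refed tissue at both ages, smad3b by the most and smad2 by the least. For smad2, an R-SMAD, old fasted fish had 277, 342, 318 and 339 units and old refed fish 280, 250, 292 and 262 units. Young fasted fish had 364, 378, 391 and 369 units and young refed fish 260, 286, 253 and 240 units. Every young fasted fish thus lay above all other fish, while the old groups overlapped through old fasted replicate 1.

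For smad3b, the other R-SMAD, the values were 391, 378, 332 and 515 units in old fasted fish and 283, 171, 211 and 274 units in old refed fish. They were 428, 553, 497 and 365 units in young fasted fish and 208, 184, 180 and 182 units in young refed fish. Fasted and refed fish did not overlap at either age. For smad4, the common partner, old fasted fish had 168, 181, 167 and 178 units and old refed fish 103, 124, 112 and 116 units, against 227, 216, 207 and 198 units in young fasted and 123, 172, 92.2 and 113 units in young refed fish. The fasted groups were tight and did not overlap the refed fish of their age, although young refed replicate 2 (172 units) reached the range of the old fasted group.

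**Figure D1:**
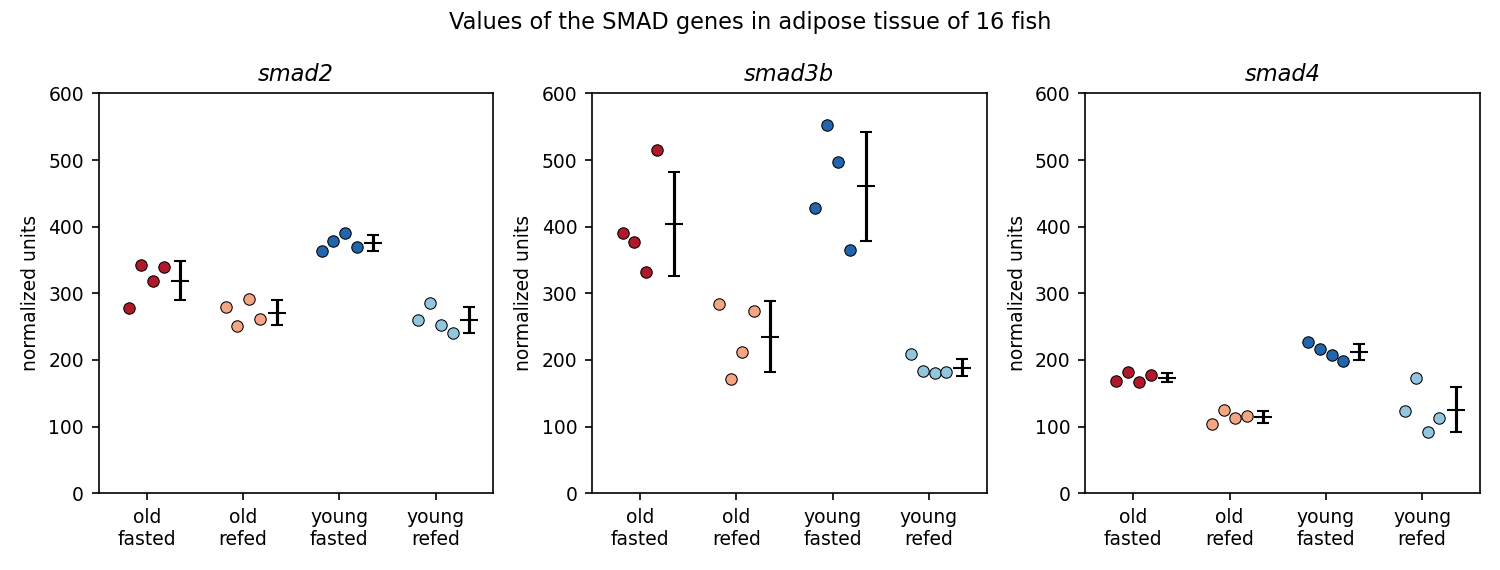
Normalized units of smad2, smad3b and smad4 (vertical axes, from 0) in adipose tissue of old fasted, old refed, young fasted and young refed fish. Each point is 1 fish and the bar beside it is the group mean ± SD (n = 4). Fasted fish lay above refed fish of the same age in all but the old fish of smad2, where old fasted replicate 1 (277 units) fell among the refed fish.

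In old fish the log2 difference between fasted and refed tissue was 0.23 for smad2 (standard error 0.08, adjusted p = 0.0493 from limma), 0.79 for smad3b and 0.60 for smad4. In young fish it was 0.53, 1.27 and 0.79. All 3 genes were called higher in fasted fish at both ages, beside 12.1% of all genes in old and 27.1% in young fish. The study had already reported these genes as upregulated in the same fasted young fish, so the young calls are not independent support. For older fish it states that some factors of a set that also holds tfeb become misregulated. Differences between ages in the effect of feeding are given below. The call of smad2 in old fish did not hold with the 8 old fish fitted alone (adjusted p = 0.107 from limma) or without any of 12 of the 16 fish, and its exact permutation p was 0.0857. Since this is bulk tissue, a change in the share of cells that express a gene and a change of RNA per cell cannot be told apart.

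The size and the sign of these differences moved with the scale. On log2 CPM the differences in old fish were -0.13 for smad2, 0.40 for smad3b and 0.21 for smad4, none of them called, and in young fish they were 0.34, 1.02 and 0.55. Relative to the spike-in rows they were -0.43, 0.13 and -0.06 in old fish and -0.18, 0.56 and 0.08 in young fish, where smad2 was called lower in old fasted fish (adjusted p = 0.000856 from limma) and smad3b was called higher in young fasted fish (adjusted p = 0.00548). The other 4 of these differences were not called on the spike-in scale (adjusted p = 0.109 for smad2 in young fish, 0.459 for smad3b in old fish, and 0.693 in old and 0.591 in young fish for smad4). On that scale 13916 of 18606 genes were called lower in old fasted fish, as smad2 was. In young fasted fish 525 genes were called higher, smad3b among them. The median gene moved by -0.02 in old and 0.10 in young fish on the deposited scale, by -0.30 and -0.04 on log2 CPM, and by -0.67 and -0.60 on the spike-in scale. Relative to the median gene, the differences of smad3b were 0.81 in old and 1.17 in young fish on the deposited scale and lay between 0.70 and 1.17 on the 3 other scales. Apart from the pseudocount, a factor per fish cancels in this measure, so its likeness between scales was given beforehand and adds no support. Among all genes ordered by their difference, smad3b stood at percentile 96.6 in old and 97.0 in young fish, smad4 at 93.6 and 89.7, and smad2 at 76.1 and 79.6. The order smad3b, smad4, smad2 held on each of these scales at both ages, as a factor per fish moves all 3 genes alike.

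**Figure D2:**
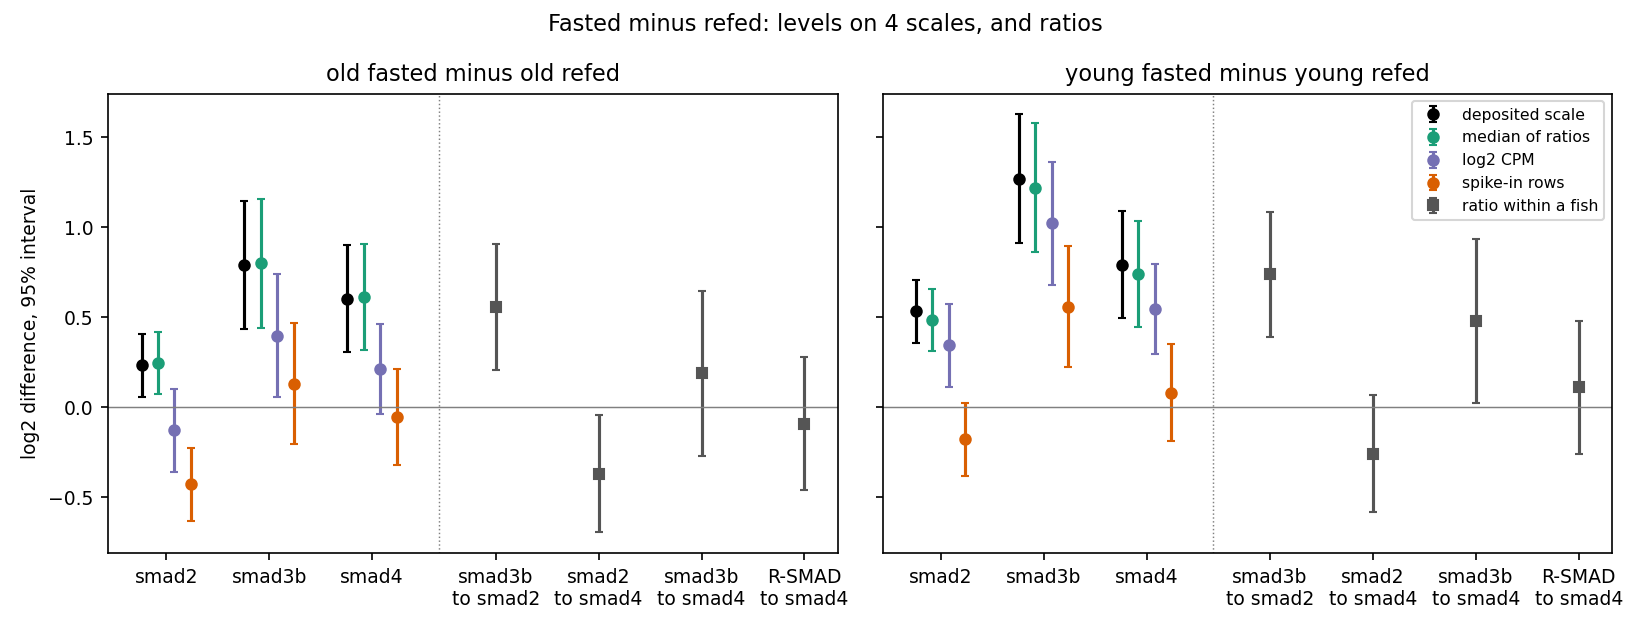
Log2 difference between fasted and refed fish (vertical axis) with its 95% interval from limma, in old fish on the left and young fish on the right. Circles give the levels of smad2, smad3b and smad4 on the deposited scale, by median of ratios, on log2 CPM and on the scale of the spike-in rows, and squares give ratios within a fish. The level of smad2 in old fish runs from 0.24 to -0.43 with the scale, whereas the ratio of smad3b to smad2 shifted by 0.56 in old and 0.74 in young fish on the deposited scale and, taken from the levels, by 0.53 and 0.68 on log2 CPM.

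The balance between the 2 R-SMADs shifted toward smad3b in fasted tissue. The ratio of smad3b to smad2 was 1.41, 1.103, 1.05 and 1.52 in old fasted fish and 1.01, 0.683, 0.724 and 1.05 in old refed fish. In young fasted fish it was 1.18, 1.46, 1.27 and 0.990, against 0.800, 0.643, 0.714 and 0.757 in young refed fish. Young fasted and young refed fish did not overlap, and in old fish 3 of the 4 fasted fish lay above every refed fish. The overlap there came from old refed replicate 4 (1.048), which was just above old fasted replicate 3 (1.046). The 4 old refed fish fell into a pair at 1.01 and 1.05 and a pair at 0.683 and 0.724, the second of which lay within the range of the young refed fish.

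Expressed as a share, smad3b made up 55.6% ± 4.49 of the units of smad2 plus smad3b in old fasted fish, against 46.0% ± 5.50 in old refed fish (SD, n = 4 each). In young fish it made up 54.8% ± 4.02 in the fasted and 42.1% ± 2.27 in the refed group (SD, n = 4 each). Both fasted groups thus sat at a similar share, and the refed groups were the ones that lay lower.

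Every gene was then tested relative to smad2 of the same fish with limma, with adjustment over 18605 genes. In old fish smad3b was higher relative to smad2 by 0.56 in fasted than in refed tissue (1.47-fold, standard error 0.17, 95% interval 0.21 to 0.91, adjusted p = 0.0188). The exact permutation test of the 4 old fasted against the 4 old refed fish gave p = 0.0571, with the fasted fish higher in 15 of 16 pairs. In young fish the difference was 0.74 (1.67-fold, standard error 0.17, 95% interval 0.39 to 1.09, adjusted p = 0.00108), with an exact permutation p of 0.0286, the smallest that 4 fish against 4 allow. Relative to smad2, 3.79% of all genes were called higher in fasted than in refed old fish and 4.51% in young fish, and smad3b was among them at both ages. Most calls went the other way, with 4931 of 18605 genes called lower in old and 9334 in young fasted fish. The median gene differed by -0.25 in old and -0.44 in young fish relative to smad2. Feeding labels were then exchanged only among fish of the same age. Over both ages the mean difference of smad3b relative to smad2 was 0.65 (1.57-fold, two-sided exact permutation p = 0.000816). The young fish in this test are those in which the study had reported the genes as upregulated in fasting. The p over both ages is thus not independent of that report, here and in the feeding tests of the other ratios. The call in old fish was lost when only the 8 old fish were fitted (adjusted p = 0.0517 from limma), without old refed replicate 2 (0.0687) and without old fasted replicate 4 (0.0696), while the call in young fish held without any of the fish.

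**Figure D3:**
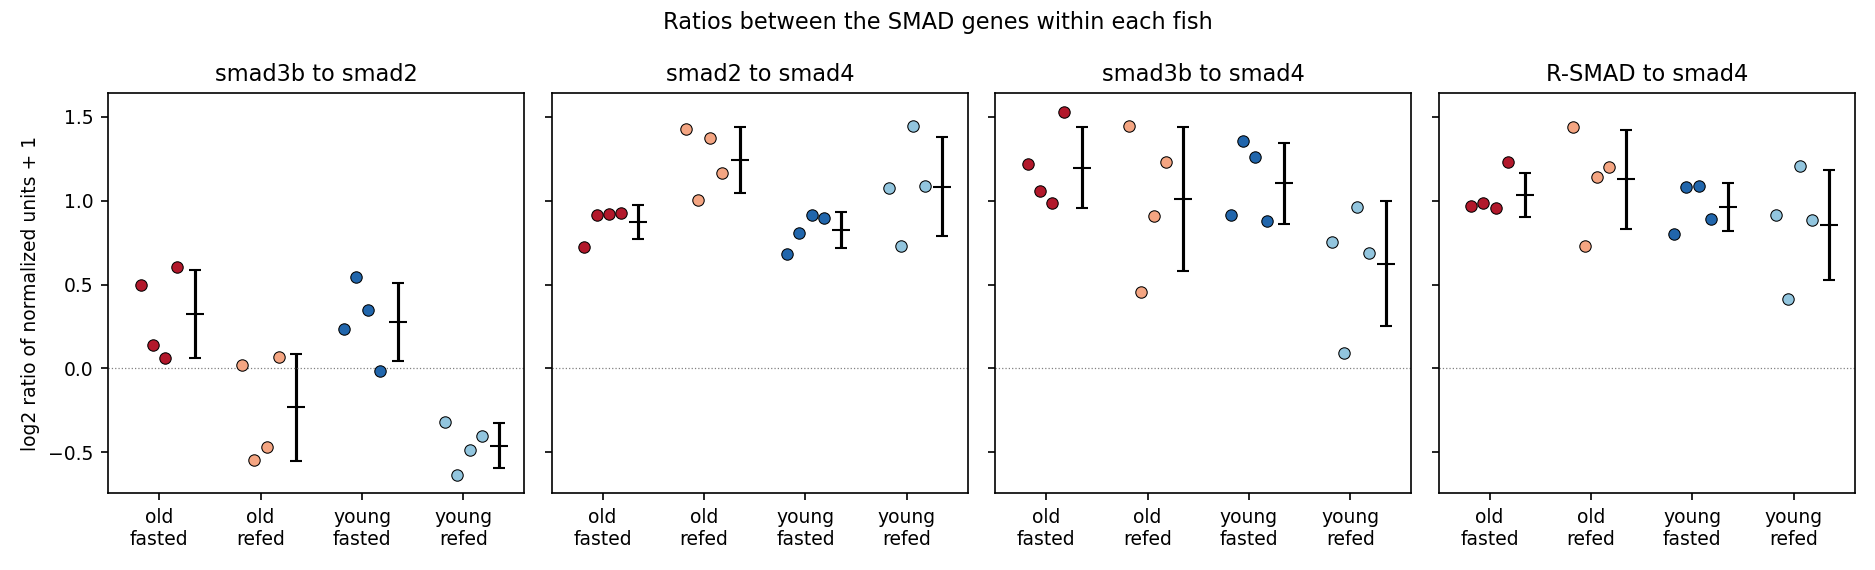
Log2 ratios within each fish (vertical axis, common to all panels) of smad3b to smad2, smad2 to smad4, smad3b to smad4 and the mean of both R-SMADs to smad4, in old fasted, old refed, young fasted and young refed fish. Each point is 1 fish, the bar is the group mean ± SD (n = 4), and the dotted line marks equal units. The means of the fasted groups lie above those of the refed groups in smad3b to smad2 and below them in smad2 to smad4, and the groups overlap in R-SMAD to smad4.

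The shift of smad3b against smad2 with feeding was 0.18 smaller in old than in young fish on the log2 scale, with a 95% interval of -0.67 to 0.31 for old minus young (adjusted p = 0.635 from limma), which leaves room for a smaller as well as a somewhat larger shift at 18 weeks. In this test 21.5% of all genes were called. No difference of this ratio with age passed the test. Old fasted and young fasted fish differed by 0.05 (95% interval -0.30 to 0.40, adjusted p = 0.861 from limma), where 22.1% of all genes were called relative to smad2. Old refed fish were higher than young refed fish by 0.23 with overlap (95% interval -0.12 to 0.58, adjusted p = 0.357 from limma, 21.8% of all genes called). Over both feeding states the mean difference between old and young fish was 0.14 (exact permutation p = 0.269). Ordered by mean ratio the groups ran old fasted, young fasted, old refed and young refed, and no neighbours in that order were separated (exact permutation p = 0.8, 0.0857 and 0.286).

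For the rows analysed, the balance between the R-SMADs as a pair and smad4 showed no such shift past the test. The R-SMAD value of a fish was the mean of its log2 values of smad2 and smad3b, and its ratio to smad4 was 1.96, 1.98, 1.94 and 2.35 in old fasted fish and 2.72, 1.66, 2.21 and 2.30 in old refed fish. In young fasted fish it was 1.74, 2.12, 2.13 and 1.85, against 1.89, 1.33, 2.32 and 1.86 in young refed fish. At each age the refed fish spanned the whole range of the fasted fish. The SD of this ratio was 0.194 in the old fasted and 0.436 in the old refed group, and 0.193 in the young fasted and 0.403 in the young refed group.

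Relative to smad4, the R-SMAD value differed by -0.09 on the log2 scale between fasted and refed old fish (95% interval -0.46 to 0.28, adjusted p = 0.646 from limma) and by 0.11 in young fish (-0.26 to 0.48, adjusted p = 0.598). In these tests 63.8% of all genes were called in old and 64.1% in young fish, most of them lower relative to smad4 in fasted fish. Over both ages the mean difference was 0.01 (exact permutation p = 0.943). Each interval spans shifts in both directions.

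Within this mean the R-SMADs moved apart. The ratio of smad2 to smad4 was 1.65, 1.89, 1.90 and 1.91 in old fasted fish and 2.71, 2.01, 2.60 and 2.25 in old refed fish, without overlap. It was 1.61, 1.75, 1.89 and 1.86 in young fasted fish and 2.11, 1.66, 2.74 and 2.13 in young refed fish, where young refed replicate 2 (1.66) lay among the fasted fish. In old fish the log2 difference was -0.37 (0.774-fold, standard error 0.16, unadjusted p = 0.0279 and adjusted p = 0.0448 from limma, exact permutation p = 0.0286), and in young fish -0.26 (95% interval -0.58 to 0.07, adjusted p = 0.151 from limma, exact permutation p = 0.143). The old call is at the edge. Read as smad4 relative to smad2, the same difference was not called (limma, adjusted p = 0.0556), and leaving out each fish in turn lost the call for 13 of the 16 fish. The young difference was called without young refed replicate 2 (-0.38, adjusted p = 0.0162 from limma). Over both ages smad2 was lower by 0.31 relative to smad4 in fasted fish (0.804-fold, exact permutation p = 0.0049), and with any fish left out this p was at most 0.0151. Most genes were lower relative to smad4 in fasted fish, with 11686 of 18605 called lower in old and 11590 in young fish. The median gene differed by -0.62 in old and -0.69 in young fish, so smad2 shifted less than the median gene.

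The ratio of smad3b to smad4 had higher means in fasted fish but did not pass the test at either age. It was 2.33, 2.08, 1.99 and 2.90 in old fasted fish and 2.74, 1.37, 1.88 and 2.36 in old refed fish, and 1.89, 2.56, 2.40 and 1.85 in young fasted fish against 1.69, 1.07, 1.96 and 1.62 in young refed fish. The groups overlapped at both ages. The log2 difference between fasted and refed fish was 0.19 in old fish (95% interval -0.27 to 0.64, adjusted p = 0.445 from limma) and 0.48 in young fish (0.02 to 0.94, adjusted p = 0.0621), and over both ages it was 0.33 (exact permutation p = 0.0629). Of the 3 ratios between single genes, smad3b to smad2 had the largest shift with feeding over both ages. The young difference of smad3b to smad4 was called without young refed replicate 3 (0.59, adjusted p = 0.0353 from limma) or old refed replicate 2 (0.48, adjusted p = 0.0419). In all, 19 exact tests of ratios between 2 groups, 3 of them only between neighbours in the order of the groups, and 8 over both ages or feeding states were made, and their p-values are given unadjusted.

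Age did not move the R-SMAD to smad4 balance past the test. Old fasted and young fasted fish differed by 0.07 (95% interval -0.30 to 0.44, adjusted p = 0.804 from limma), where 9.37% of all genes were called relative to smad4. Old refed fish were higher than young refed fish by 0.27 (-0.10 to 0.64, adjusted p = 0.339, 12.8% of all genes called). The difference between old and young fish in the effect of feeding was -0.20 (-0.72 to 0.32, adjusted p = 0.713, 2.38% of all genes called). Over both feeding states the mean difference between old and young fish was 0.17 (exact permutation p = 0.176). By mean log2 ratio the groups ran old refed, old fasted, young fasted and young refed, with overlap between all neighbours.

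For the levels themselves, old fasted fish lay below young fasted fish without overlap in smad2 (319 ± 29.8 against 375 ± 11.6 units) and smad4 (174 ± 7.04 against 212 ± 12.3 units; SD, n = 4 each). The log2 differences were -0.24 for smad2 (exact permutation p = 0.0286, adjusted p = 0.0793 from limma) and -0.29 for smad4 (exact permutation p = 0.0286, adjusted p = 0.205 from limma), and for smad3b it was -0.19 with overlap. None of the 3 was called beside 9.55% of all genes. On log2 CPM the differences turned to 0.15, 0.10 and 0.20 and on the spike-in scale to 0.09, 0.04 and 0.13 for smad2, smad4 and smad3b. In all 3 cases the median gene moved more, by 0.31 on log2 CPM and 0.32 on the spike-in scale, so relative to the median gene each of the 3 was lower in old fasted fish, by 0.11 to 0.28 over the scales. Here too the scales had to give nearly the same value, which adds no support.

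In refed fish the old and young groups overlapped in all 3 genes, with log2 differences of 0.06 for smad2, 0.29 for smad3b and -0.10 for smad4 on the deposited scale. None was called there beside 28.1% of all genes. On log2 CPM the differences were 0.62, 0.82 and 0.44 and all were called. There 13272 of 18606 genes were called higher in old refed fish, and the median gene moved by 0.50. On the spike-in scale the differences were 0.33, 0.56 and 0.18, where the median gene moved by 0.31. Of these, smad2 (adjusted p = 0.0124 from limma) and smad3b (0.0117) were called, on a scale with 6571 genes called higher in old refed fish. The effect of feeding was smaller in old fish by 0.30 for smad2, 0.48 for smad3b and 0.19 for smad4 on the log2 scale, and none of the 3 differences was called beside 14.1% of all genes.

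Within groups the 3 genes differed in how much like-treated fish varied. The SD of log2 values within groups was 0.103 for smad2, which is at percentile 12.7 of 3510 genes of like level (median 0.158). It was 0.257 for smad3b, at percentile 83.2 of 3522 genes of like level, and 0.201 for smad4, near the median of 0.189. Most of the spread of smad4 came from the young refed fish. Their SD was 27.2% of their mean, and that of the old fasted fish 4.06%.

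No pair of the SMAD genes passed a test for co-variation within groups, where 12 residual degrees of freedom could miss a moderate relation. Correlations were taken over 16 fish between deviations of log2 values from the group mean, for 3 pairs of genes, with fish exchanged within groups for the p-values. For smad2 and smad3b, Pearson's r was 0.30 (permutation p = 0.321) and Spearman's rho 0.23 (permutation p = 0.445), and r was 0.40 without the 2 fish farthest from the median of smad2. For smad2 and smad4, r was 0.36 (permutation p = 0.251) and rho 0.25 (permutation p = 0.417), and r was 0.09 without the 2 farthest fish. That relation rests on young refed replicate 2, the fish with the highest smad2 (286 units) and smad4 (172 units) of its group, and r was -0.04 without it. For smad3b and smad4, r was -0.03 (permutation p = 0.838) and rho -0.04 (permutation p = 0.904), and r was 0.04 without the 2 farthest fish. Among the r of all genes with smad2, that of smad3b stood at percentile 82.6 and that of smad4 at 87.8. Among the r of all genes with smad3b, that of smad4 stood at percentile 48.2. Both genes deviated in the same direction in 12 of 16 fish for smad2 and smad3b, and in 10 for each other pair.

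Groups of 4 fish are too small for an r of their own. For smad2 and smad3b the lean was positive in all 4 groups. For the pairs with smad4 the direction of the lean differed between groups, and a sign from 4 fish is unreliable. The r over 16 fish gives more weight to groups with a wide spread. For smad4 that was the young refed group (SD of log2 values 0.373, against 0.058 to 0.110 in the others). For smad2 and smad4 the lean was negative in the old refed and young fasted groups and positive in the other 2, and for smad3b and smad4 it was negative in the old refed group and positive in the other 3. Single fish show how the pairs come apart. Old refed replicate 2 had the lowest smad2 (250 units) and the lowest smad3b (171 units) but the highest smad4 (124 units) of its group, and so the lowest R-SMAD to smad4 ratio there (1.66). Old refed replicate 1 had the lowest smad4 (103 units) and the highest smad3b (283 units), and the highest such ratio of all fish (2.72). Old fasted replicate 4 had the highest smad3b of the old fish (515 units) at a smad2 value (339 units) close to that of replicate 2 (342 units), which has 378 units of smad3b. The 3 values of a fish share its scaling. With all genes, the median r was -0.02 for smad2 and for smad3b, and on log2 CPM the median r with smad2 was 0.35, about the r of 0.37 between smad2 and smad3b on that scale. For the other pairs on log2 CPM, r was 0.32 for smad2 and smad4 and -0.12 for smad3b and smad4. On the spike-in scale r was 0.13 for smad2 and smad3b and 0.05 for smad2 and smad4. Both lay below the median r of all genes with smad2 on that scale, 0.23. There r was -0.36 for smad3b and smad4, against a median r of all genes with smad3b of -0.007.

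**Figure D4:**
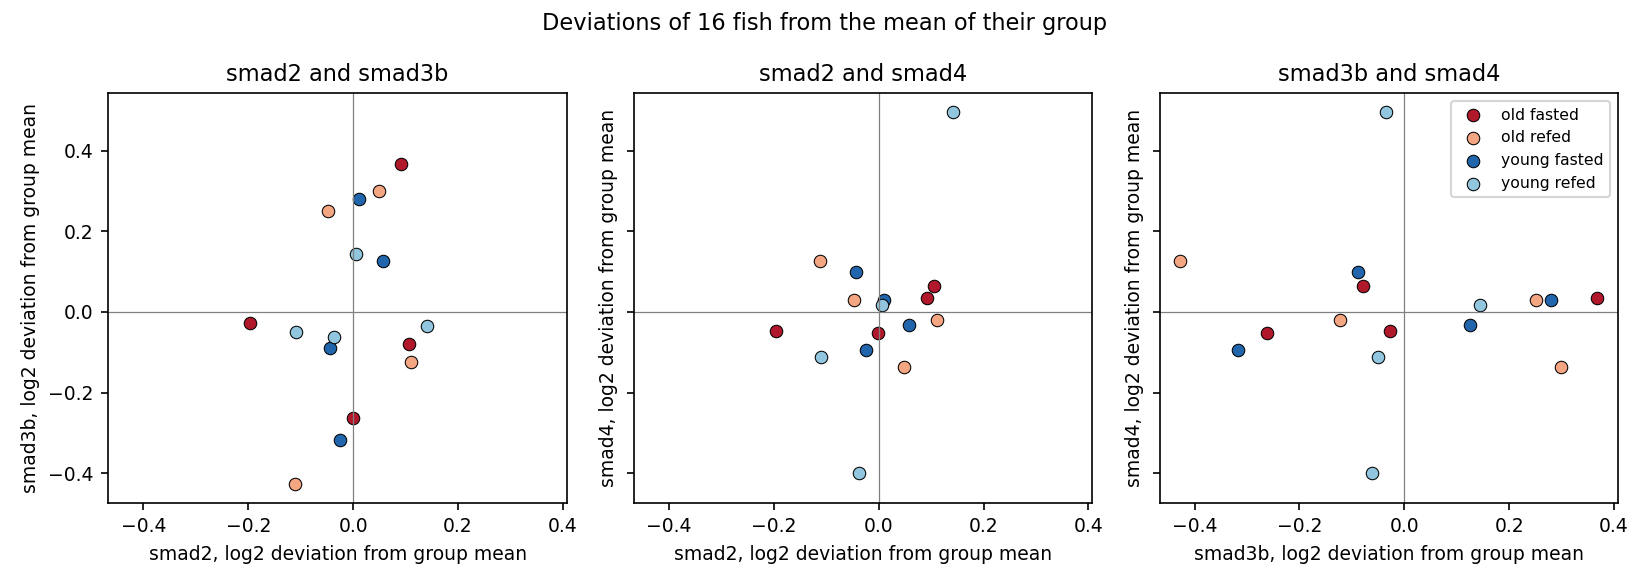
Log2 deviation of each fish from the mean of its group for smad2 and smad3b, smad2 and smad4, and smad3b and smad4, with both axes on the same scale. Each point is 1 of 16 fish, coloured by group. The points spread widely along smad3b and narrowly along smad2, and the young refed fish at the top of the second panel (replicate 2) carries the r of 0.36 between smad2 and smad4, which is -0.04 without it.

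Taken over all 16 fish with the group differences left in, r was 0.86 between smad2 and smad3b, 0.87 between smad2 and smad4 and 0.78 between smad3b and smad4, as a description of points that share groups of feeding and age. Many other genes were as close. Among the 18605 other rows, smad4 ranked at 515 by its r with smad2 and at 1574 by its r with smad3b, and smad3b ranked at 625 by its r with smad2. The rows most like the mean of the 3 genes were ENSNFUG00015012089 (r = 0.99, 653 units on average in old fasted, 291 in old refed, 866 in young fasted and 253 in young refed fish) and ENSNFUG00015018614 (r = 0.98, 745, 457, 961 and 402 units in the same groups), neither of which has a symbol in the sources used here. Of 11701 rows with a mean of at least 100 units, 439 (3.75%) had an r of at least 0.9 with that mean.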

How the data were processed

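Per the labels and the methods of the study, ribosomal RNA was depleted from total RNA, and the authors pseudo-aligned reads with kallisto 0.45.0 and compared groups with DESeq2 1.24.0. The signal deposited for each gene is a normalized value derived from estimated reads, and the sources used here do not give the rule of scaling. In a column, 16.4% to 78.2% of the low values came within 0.1 steps of a whole number of steps. The lowest share was that of old fasted replicate 3, and the next lowest was 55.6%. Most columns thus keep a trace of whole steps, but none had all its low values there. Reads were therefore not recovered, the depth is unknown and no counting interval is given. All 16 columns were matched to fish by name, and 74 spike-in rows were kept out of the tests. A total of 268 rows were identical to another row, none of them a SMAD gene.

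With limma 3.58.1 in R 4.3.3 (eBayes with trend), log2(value + 1) of 18606 genes was modelled by 4 group means over 16 fish, once as levels, once relative to smad2 and once relative to smad4. A call needed an adjusted p (Benjamini-Hochberg over all genes) under 0.05. Fold changes on this scale are understated for low genes. Exact permutation tests were two-sided (scipy 1.17.1, numpy 2.4.6, pandas 2.3.3, Python 3.11.15), with a smallest p of 0.0286 between 2 groups and 0.000408 over both ages, and correlations used 100000 draws. Plots used matplotlib 3.10.9. Simulated data were used to try the fit of levels, the fit relative to smad2 and the permutation test over both ages. Genes were simulated independently of each other for the fits. The fit relative to smad4 was not tried in this way. The rows named were the 3 genes and at most 2 rows most like their mean, with at least 100 units and not identical to another row.

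Alternatives were pseudocounts of 0.1 and 5, a filter of at least 10 units in at least 4 fish, log2 CPM with a prior of 1, scaling to the 42 spike-in rows with a mean of at least 100 units, scaling by median of ratios, a fit of the fish compared alone, the replicate number as a block, the log2 of the sum of both R-SMADs, and each fish left out. The genes, lists and tests were chosen with earlier results of these data known. Lists of pathway genes and cell type markers need symbols and could not be applied, since 0 identifiers matched the 38438 genes of the RefSeq table.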

Additional observations from a re-analysis of the deposited data

Results flagged for a closer look

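In 28 groups of 4 fish (levels and ratios of the 3 genes), 3 had a fish whose gap to its nearest neighbour as a share of the range of the group was over Dixon's critical value, where chance gives about 1 in 20 groups. For smad3b, young refed replicate 1 had 208.31 units, against 180 to 184 units in the other young refed fish. For the log2 ratio of smad2 to smad4, old fasted replicate 1 had 0.721, against 0.913 to 0.928 in the other old fasted fish. For the log2 ratio of the R-SMAD mean to smad4, old fasted replicate 4 had 1.23, against 0.954 to 0.984 in the other old fasted fish. In each case the other 3 fish lay close together. The levels and ratios come from the same fish, so the 28 groups are not independent, and the count of 3 was not tested.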

How the results depend on the processing

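Pseudocounts, the filter on low values, scaling by median of ratios and the sum of both R-SMADs changed no call and no direction. The median-of-ratios factors were only -0.049 to 0.030 on the log2 scale. That scale is thus nearly the deposited one and could change little. Taken from the levels, the shift of smad3b to smad2 with feeding was 0.53 in old and 0.68 in young fish on log2 CPM, where the prior takes part, against 0.56 and 0.74 on the other scales, and levels moved more. On log2 CPM the log2 differences between old fasted and old refed fish were -0.13 for smad2, 0.40 for smad3b (adjusted p = 0.0534 from limma) and 0.21 for smad4 (0.148). Between old fasted and young fasted fish they were 0.15, 0.20 and 0.10, and between old refed and young refed fish 0.62, 0.82 and 0.44. On the spike-in scale the same 3 comparisons gave -0.43, 0.13 and -0.055, then 0.087, 0.13 and 0.039, then 0.33, 0.56 and 0.18, and young fasted against young refed fish gave -0.18 for smad2 and 0.081 for smad4. The cause was not tested. Numbers of genes called moved too, 4842 on the deposited scale but 8783 on log2 CPM and 14094 on the spike-in scale in old fasted against old refed fish, 1777 but 8503 and 6938 in old fasted against young fasted fish, and 2632 but 1188 and 1435 for the difference between ages. In old refed against young refed fish 5229 were called, but 13629 on log2 CPM.

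Fitted with the 8 fish compared alone, the old feeding difference was 0.23 for smad2 (adjusted p = 0.107 from limma) and 0.56 for smad3b to smad2 (0.0517), both no longer called. That of smad2 to smad4 was -0.37 and stayed called (adjusted p = 0.0180 from limma). Relative to smad4 the genes called between ages were 6515 in place of 1743 in fasted and 1158 in place of 2385 in refed fish. Replicate numbers did not pair the fish. Deviations of same-numbered fish from different groups correlated at -0.197 to 0.123, and 1 of 16 such comparisons was above 0.1. In 3 of the 16 comparisons the fish with the same number was the closest. With the replicate block the old feeding difference of smad2 was 0.23 (adjusted p = 0.0748 from limma, no longer called) and 1162 genes were called in old fasted against young fasted fish, and no other call changed.

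With each fish left out in turn, the shift of smad3b to smad2 was 0.45 to 0.66 in old fish, with feeding, and -0.050 to 0.14 in old fasted against young fasted fish. R-SMAD to smad4 ran from -0.22 to 0.012 in old fish, from -0.038 to 0.23 in young fish and from -0.065 to 0.067 over both ages. The feeding difference of smad2 to smad4 was -0.45 to -0.31 in old and -0.38 to -0.14 in young fish, called in young fish only without young refed replicate 2, with -0.23 to 0.0072 for old minus young, and it was -0.00022 to 0.097 between old fasted and young fasted fish. For smad3b to smad4 it was 0.30 to 0.59 in young fish (called in 2 of 16 fits) and 0.24 to 0.41 over both ages, and -0.016 to 0.18 between old fasted and young fasted fish. The level of smad2 differed by 0.20 to 0.30 between old fasted and old refed fish and lost its call in 12 of 16 fits, up to an adjusted p of 0.135 from limma. The level of smad4 differed by -0.23 to 0.068 between old refed and young refed fish. The r of smad2 and smad3b was 0.12 to 0.38, that of smad2 and smad4 -0.038 to 0.48 and that of smad3b and smad4 -0.12 to 0.10. Genes called numbered 1683 to 2758 for the difference between ages (1683 without old fasted replicate 1) and 740 to 1925 in old fasted against young fasted fish (740 without old fasted replicate 3). Relative to smad4 they numbered 46 to 3958 for the difference between ages (46 without young refed replicate 4), 200 to 4863 in old fasted against young fasted fish (200 without young fasted replicate 1) and 1578 to 3990 in old refed against young refed fish, and relative to smad2 1836 to 4847 in old fasted against young fasted fish (1836 without old fasted replicate 1).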
